A study of Mus musculus with 12 samples.

Results

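The question addressed here was whether deletion of Ets1 changed gene expression in liver iNKT1 cells by the same amount as in thymic iNKT1 cells. The measure was the interaction of genotype and tissue: the difference between cKO and control cells in liver minus the same difference in thymus, on the scale of log2(value + 1). All 12 samples of the series entered it, and 13058 of the 14004 genes in the deposited table, those with a value of at least 10 in at least 3 samples, were tested. A positive interaction means that the difference of cKO from control cells was the more positive one in liver, and a negative interaction that it was the more negative one there.

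RNA-seq was performed on primary mouse iNKT1 cells that were positive for CD1d tetramer and YFP. The 4 groups of 3 samples were cKO liver, control liver, cKO thymus and control thymus. The cKO genotype was Tbx21Cre Ets1F/F Rosa26-YFP+, and the control genotype was Tbx21Cre Rosa26-YFP+, so that both carried the Cre driven by the gene for T-bet and the YFP reporter, and the genotypes differed by the loxP-flanked Ets1 alleles. The sources used here give no age or sex of the mice and do not say whether liver and thymus samples came from the same mice, so p-values measure the spread between the samples as labelled. Because Cre follows T-bet, deletion is expected once a cell has switched T-bet on, and YFP marks cells in which Cre has acted rather than cells in which both Ets1 alleles are known to be lost.

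Invariant natural killer T (iNKT) cells are T cells with a semi-invariant receptor for lipids presented by CD1d. The iNKT1 subset is defined by the T-box factor T-bet (Tbx21), makes interferon gamma, and expresses receptors shared with NK cells, and it includes cells that stay in the thymus and many of the iNKT cells that reside in the liver sinusoids. Ets1 is the founding member of the ETS family of transcription factors, which bind a GGAA core, and is highly expressed in lymphocytes, where it is known for roles in the development of iNKT and NK cells and as a partner of T-bet and Runx factors at target genes.

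Of the 13058 genes, 1 was called in the interaction at a Benjamini-Hochberg adjusted p under 0.05 in limma, which is 0.00766% of those tested. This gene was Styk1, a receptor-like kinase gene that lies beside the NK gene complex and is known in cells of the NK lineage. At an unadjusted p under 0.05, 702 genes passed (5.38%), 286 with a positive and 416 with a negative interaction, and such a threshold passes 5% of genes when nothing differs. The smallest adjusted p after that of Styk1 was 0.13. On reads recovered from the values, edgeR called 3 genes and DESeq2 112, and limma called 9 without control thymus sample 3, so that the number of genes with a tissue dependence depended on the tool and on that sample, and Styk1 was called in each. A library-wise scaling affected the centre of these values: the median interaction over all genes was -0.20, with quartiles of -1.32 and 0.70, and it was 0.07 after TMM rescaling, -0.07 after median-of-ratios rescaling and -0.03 in edgeR on recovered reads. Interactions of groups of genes are therefore given beside the median of -0.20.

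**Figure D1:**
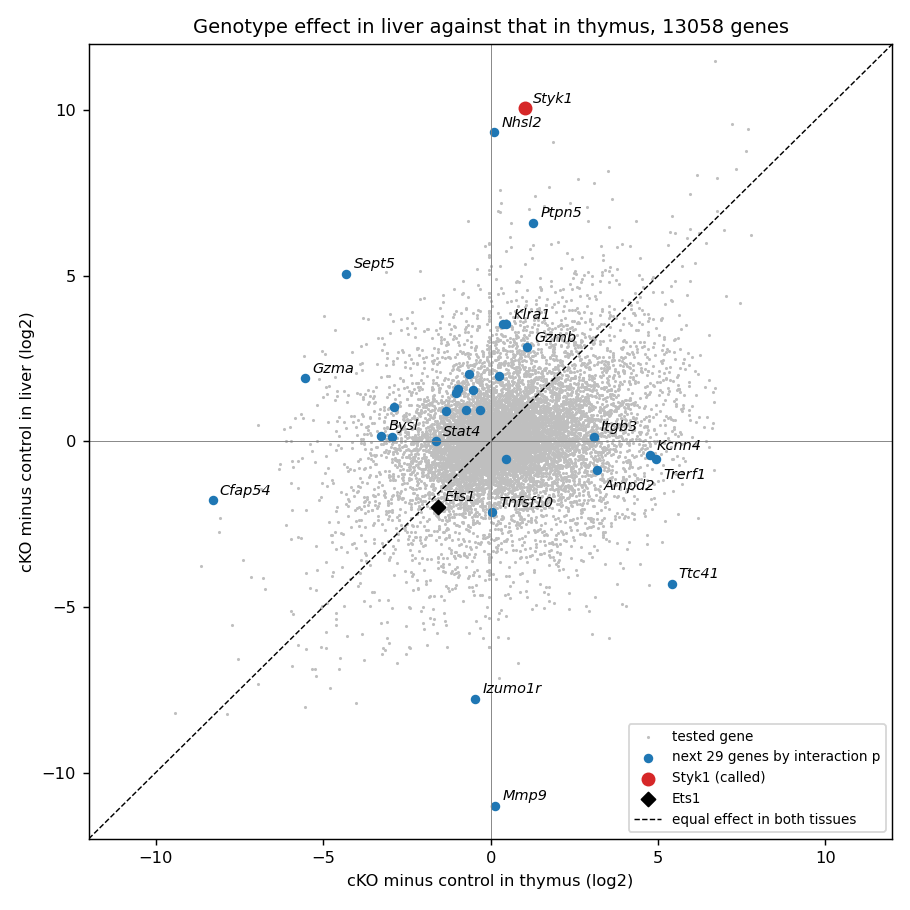
Difference between cKO and control cells in liver (vertical axis, log2) against that in thymus (horizontal axis, log2) for 13058 tested genes (grey points), with n = 3 samples in each group. Vertical distance from the dashed line of equal effects is the interaction: Styk1 (red) lies 9.03 above it, the other 29 genes of smallest p (blue) lie on both sides, and Ets1 (black diamond) lies close to it.

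The precision of an interaction depended strongly on how highly a gene was expressed. Its median SE was 1.63 on the log2 scale over all genes, against 1.15 for the difference in a single tissue. For the 3381 genes with a mean value under 100 the median SE was 2.71, for the 5775 genes from 100 to 1000 it was 1.73, for the 3675 genes from 1000 to 10000 it was 0.69, and for the 227 genes at 10000 or more it was 0.34. A 95% interval that lay wholly between -1 and 1, which limits the tissue dependence to less than a doubling or halving, was reached for 215 genes (1.65%). Of these, 107 had a mean value between 1000 and 10000 (2.91% of that class) and 108 a mean of at least 10000 (47.6% of that class). For most of the other genes, a tissue dependence of several fold was not detectable at this number of samples.

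The targeted gene was lower in cKO cells of both tissues. Ets1 had values of 3594, 4425 and 5787 in cKO liver, against 18773, 18528 and 15910 in control liver, and of 11817, 7069 and 5788 in cKO thymus, against 23692, 28051 and 19493 in control thymus. The cKO samples lay below all control samples of the same tissue. The difference was -1.97 ± 0.27 in liver (log2 ± SE, adjusted p = 0.0012, limma) and -1.58 ± 0.27 in thymus (adjusted p = 0.0095). The interaction of Ets1 was -0.39 ± 0.39 (95% interval -1.20 to 0.42, adjusted p = 0.94). Values count reads over the whole gene (chromosome 9, 32636221 to 32757820, plus strand, GRCm38), and exons outside the loxP sites still give reads, so that the level left in cKO samples is no measure of the share of cells with intact Ets1. In bulk samples fewer cells that express a gene and less RNA per cell cannot be told apart, here and in every value below.

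Tbx21, which encodes T-bet and drives the Cre of both genotypes, had 6321, 4831 and 4267 in cKO liver, against 2353, 3513 and 2321 in control liver, and 4285, 3673 and 6832 in cKO thymus, against 1386, 5762 and 1868 in control thymus. Values were above those of control in all cKO liver samples, and the thymus groups overlapped through control thymus sample 2. Neither difference was called, with 0.92 ± 0.44 in liver (adjusted p = 0.73, limma) and 0.95 ± 0.44 in thymus (adjusted p = 0.37). The interaction was -0.03 ± 0.63 (95% interval -1.34 to 1.29), and its sign turned to positive under each of the other scalings, with 0.26 after TMM rescaling.

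Effects in the tissues had more genes in common in direction than in call. In liver, 66 genes were called (0.505%), 41 higher and 25 lower in cKO cells, and in thymus 83 genes (0.636%), 41 higher and 42 lower. After TMM rescaling the thymus calls were 27 higher and 90 lower, and in edgeR 15 higher and 36 lower. These counts changed with the samples used. With 1 sample left out, the liver calls ranged from 19 to 126, the highest being without control thymus sample 2. They were 19 to 35 when the sample left out was a liver sample. The thymus calls ranged from 21 to 542, the highest being without control thymus sample 3. Across the 13058 genes, the liver and thymus differences had a Pearson r of 0.28 and a Spearman rho of 0.23, given as a description since genes are not independent replicates, and 7602 genes (58.2%) had the same sign in both tissues.

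Among the 66 genes called in liver, 64 had the same sign in thymus and 2 the opposite one. Their median difference was 3.54 in liver, which chose them, and 1.33 in the same direction in thymus, which did not. Among the 83 genes called in thymus, 73 had the same sign in liver and 10 the opposite one, with a median of 3.24 in thymus, which chose them, and 1.26 in the same direction in liver. Of the 54 genes called in liver and not in thymus, Styk1 was the single one called in the interaction, and of the 71 called in thymus and not in liver, 0 were. At an unadjusted p under 0.05 these were 28 and 44 genes, in edgeR 3 and 0, and in DESeq2 12 and 14, where the shares of all genes were 5.38%, 0.023% and 0.858%. The differences that chose these genes also enter their interactions, so that the counts describe them and are not read against those shares. In limma, a call in a single tissue was shown to be a difference between tissues for Styk1 alone among these genes.

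The liver and thymus comparisons share 1 estimate of spread per gene, so that calls in them are not independent. The 12 genes called in both tissues all moved the same way. They make up 18.2% of the liver calls, against 0.636% of all genes called in thymus. They make up 14.5% of the thymus calls, against 0.505% of all genes called in liver. They include Ets1, the granzyme gene Gzmb, Ahnak (a giant scaffold protein), the integrin alpha chain gene Itgad, the semaphorin receptor gene Nrp2, the interferon-inducible genes Ifi203 and Ifi213, the lysophosphatidic acid receptor gene Lpar6 and the C-type lectin domain gene Cd93. The interaction of Ahnak was among the better limited ones, at 0.35 (95% interval -0.11 to 0.81), and that of Ifi213 was -0.04 (-1.24 to 1.17). Those of Cd93 and Itgad spanned several log2 units, from -4.97 to 4.22 and from -3.35 to 6.84, so that equal effects in both tissues were not shown for them.

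Styk1 (chromosome 6, 131299142 to 131353597, minus strand, GRCm38) had values of 3528, 2812 and 1628 in cKO liver, against 0, 5.98 and 0.889 in control liver. In thymus it had 16111, 10136 and 7747 in cKO cells, against 3610, 4717 and 8600 in control cells. The liver groups were apart by more than 2 orders of magnitude, while the thymus groups overlapped through control thymus sample 3, which was above cKO thymus sample 3. Recovered reads were 8051 over the cKO liver samples, against 7 over the control liver samples, 0 of them in samples 1 and 3, which gave a ratio of read shares of 985 (exact 95% interval 478 to 2450, counting error only). In thymus they were 37056 in cKO and 14160 in control samples.

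Styk1 rose in cKO liver by 10.06 ± 0.70 (log2 ± SE, adjusted p = 2.1e-07, limma), and its difference in thymus was 1.04 ± 0.70 (adjusted p = 0.55). The interaction was 9.03 ± 0.99 (95% interval 6.95 to 11.11, adjusted p = 0.00036). Seen the other way, liver minus thymus was -2.10 ± 0.70 in cKO cells (adjusted p = 0.35) and -11.12 ± 0.70 in control cells (adjusted p = 3.6e-08), so that control liver was the low group. The fitted size depends on the pseudocount, because control liver was near 0: the interaction ranged from 4.60 to 9.81 over the 25 alternatives run, and Styk1 was called under each of them, with a highest adjusted p of 0.014. The interaction was also called without the 2 liver samples of fewest reads.

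**Figure D2:**
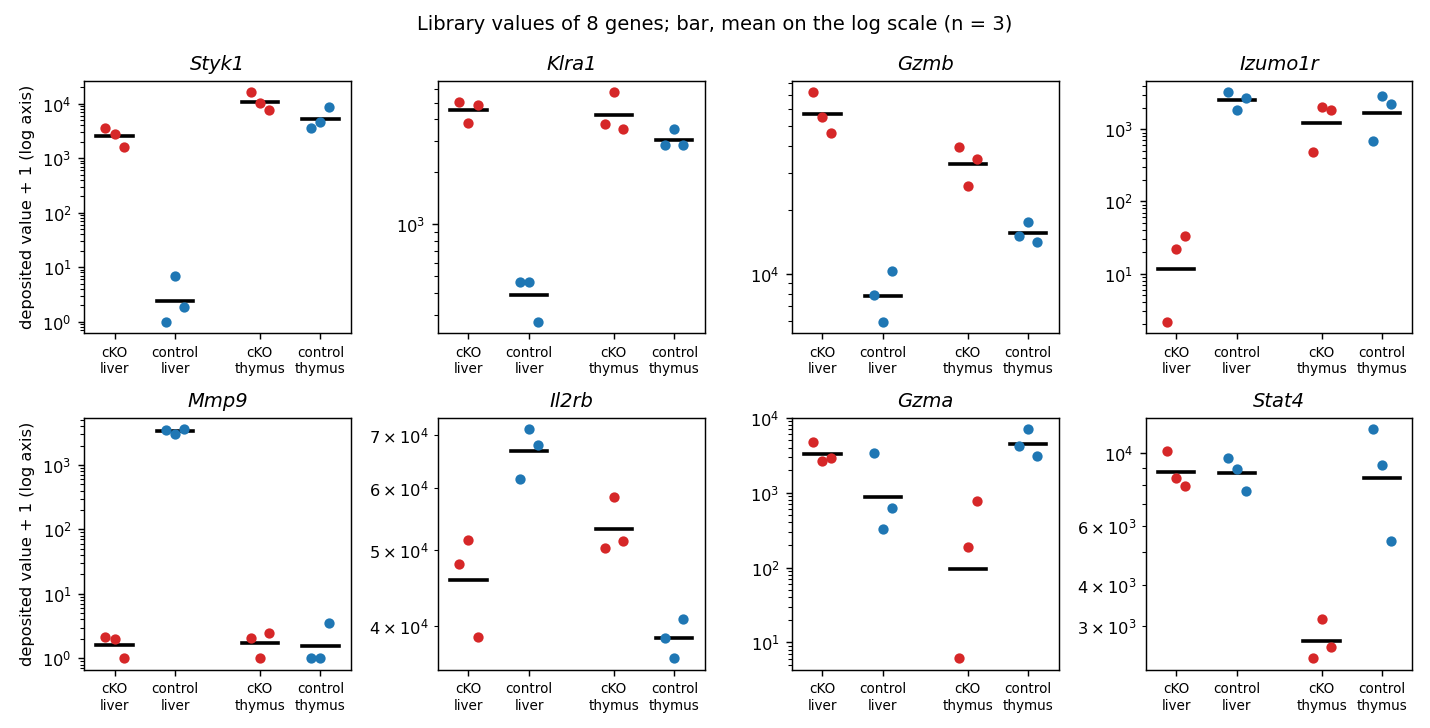
Deposited values plus 1 (vertical axes, log scale) of 8 genes in each of the 12 samples: cKO (red) and control (blue) cells of liver, then of thymus, with a bar at the mean on the log scale of the 3 samples. Control liver is the low group for Styk1, Klra1 and Gzmb, the high group for Mmp9 and Il2rb, and cKO liver is the low group for Izumo1r, while for Gzma and Stat4 cKO thymus is the low group.

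The other 29 genes that follow by p had an adjusted p between 0.13 and 0.75 and were not called. In edgeR 2 of the 29 were called and in DESeq2 23. They are described here by their values, as the genes in which a tissue dependence came nearest to the threshold. With Styk1 they make 30 genes, 21 with a positive and 9 with a negative interaction. Of these 30, 9 were called in liver alone, 9 in thymus alone, 1 in both tissues and 11 in neither, and in 20 the differences in liver and thymus had opposite signs. The interaction chose these genes, so their counts in each tissue, against 0.505% and 0.636% of all genes, are a description.

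A first group differed between genotypes mainly in liver. Klra1, which encodes a Ly49 receptor (Ly49A) for MHC class I, had 5020, 3811 and 4863 in cKO liver, against 466, 461 and 274 in control liver, and 3750, 5713 and 3528 in cKO thymus, against 2849, 3519 and 2840 in control thymus. The cKO values of liver were close to the level of both thymus groups, and control liver alone was low. It rose in cKO liver (3.54 ± 0.38, adjusted p = 0.0001, limma), its difference in thymus was 0.47 ± 0.38 (adjusted p = 0.64), and the interaction was 3.07 ± 0.54 (95% interval 1.93 to 4.21, adjusted p = 0.13). Liver minus thymus was -2.97 in control cells (adjusted p = 0.00069) and 0.10 in cKO cells (adjusted p = 0.99). The Ly49 genes resemble one another closely in sequence, the treatment of reads that match several of them is not stated, and the value of a single member is uncertain to that extent. The interaction of Klra1 was called after TMM rescaling (adjusted p = 0.04), in edgeR (0.045) and in DESeq2 (2.2e-07).

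Gzmb, the gene for the serine protease granzyme B of cytotoxic granules, had 71896, 54843 and 46204 in cKO liver, against 7927, 5937 and 10279 in control liver. In thymus it had 39803, 26034 and 34870 in cKO cells, against 15045, 17618 and 14109 in control cells. The genotypes were apart in both tissues, and the order of the tissues turned round: control liver was below control thymus, and cKO liver above cKO thymus. Gzmb rose in cKO cells by 2.85 ± 0.23 in liver (adjusted p = 1.5e-06, limma) and by 1.09 ± 0.23 in thymus (adjusted p = 0.039). The interaction was 1.76 ± 0.33 (95% interval 1.07 to 2.45, adjusted p = 0.13), and over the alternatives it lay between 1.56 and 2.05, with an adjusted p from 0.0061 in DESeq2 to 0.81.

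Izumo1r, the gene for folate receptor 4, a surface protein of regulatory and anergic T cells, had 1.16, 21.1 and 31.8 in cKO liver, against 3235, 1852 and 2736 in control liver. It had 481, 2020 and 1826 in cKO thymus, against 691, 2922 and 2272 in control thymus. Only cKO liver was low, and the thymus groups overlapped, with sample 1 the lowest in both. Izumo1r fell in cKO liver (-7.77 ± 0.96, adjusted p = 0.00033, limma), with -0.46 ± 0.96 in thymus (adjusted p = 0.88) and an interaction of -7.32 ± 1.35 (95% interval -10.15 to -4.48, adjusted p = 0.13). In cKO cells it was lower in liver than in thymus (-6.71, adjusted p = 0.0068), and in control cells the tissues differed by 0.61 (adjusted p = 0.84). The interaction of Izumo1r was called at a pseudocount of 10 (adjusted p = 0.048) and in DESeq2 (1.6e-06).

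Mmp9, the gene for a secreted matrix metalloproteinase, had values of 1.16, 0.992 and 0 in cKO liver, against 3430, 3033 and 3585 in control liver. In thymus it was at 1.03, 0 and 1.43 in cKO cells, against 0.0213, 0.0275 and 2.55 in control cells. It was thus high in control liver alone, and 2 reads over the cKO liver samples stood against 8069 over the control liver samples, a ratio of read shares of 4710 in favour of control liver (exact 95% interval 1300 to 38900, counting error only). In thymus, 3 and 2 reads over the groups give no fold. It fell in cKO liver (adjusted p = 0.0014, limma), and the interaction of -11.14 ± 2.21, a value set by the pseudocount, had an adjusted p of 0.20. It was called at pseudocounts of 10 (adjusted p = 0.033) and 50 (0.0095), in edgeR (0.045) and in DESeq2 (4.1e-08). Mmp9 is also a neutrophil gene, and it was the single one of 12 neutrophil markers looked for that had a row in the table.

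Nhsl2, a member of the Nance-Horan syndrome protein family, showed the mirror pattern of Mmp9. It had 1737, 1172 and 2160 in cKO liver, against 0, 7.7 and 0.885 in control liver, and at most 2.16 in any thymus sample. High values were found in cKO liver alone, with 5508 reads over those samples, against 9 over the control liver samples (ratio of read shares 524, exact 95% interval 276 to 1150). It rose in cKO liver (adjusted p = 0.0077, limma), and the interaction of 9.23 ± 2.27 had an adjusted p of 0.65. It was called at a pseudocount of 50 (adjusted p = 0.03), without a variance trend (0.016) and in DESeq2 (0.0029). Ptpn5, which encodes the tyrosine phosphatase STEP, had 2368, 2884 and 2029 in cKO liver, against 1.72, 42 and 128 in control liver, and 4616, 6009 and 3512 in cKO thymus, against 1860, 2576 and 1425 in control thymus. As with Styk1, control liver was the low group: liver minus thymus was -6.26 in control cells (adjusted p = 0.002) and -0.94 in cKO cells (adjusted p = 0.91). Its difference was 6.60 in liver (adjusted p = 0.0014) and 1.28 in thymus (adjusted p = 0.58), and its interaction was 5.33 ± 1.32 (adjusted p = 0.65).

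Flna, the gene for the actin crosslinker filamin A, had 17612, 22911 and 16450 in cKO liver, against 5382, 4505 and 4495 in control liver. In thymus the 6 values lay between 7311 and 15532 and the groups overlapped. It rose in cKO liver (1.98 ± 0.27, adjusted p = 0.00093, limma), with 0.24 ± 0.27 in thymus and an interaction of 1.73 ± 0.38 (adjusted p = 0.38). S1pr1, the sphingosine-1-phosphate receptor through which lymphocytes leave tissues, rose in cKO liver (5086, 2445 and 2535, against 464, 339 and 128 in control liver, adjusted p = 0.0067), with overlapping values in thymus and an interaction of 3.15 ± 0.84 (adjusted p = 0.75). Tnfsf10, the TRAIL death ligand gene, fell in cKO liver (1929, 1114 and 2063, against 10296, 6372 and 5747 in control liver, adjusted p = 0.014). Its thymus values overlapped, between 2321 and 5691, and its interaction was -2.18 ± 0.56 (adjusted p = 0.71).

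A second group differed between genotypes mainly in thymus. Stat4, the transcription factor that acts downstream of interleukin 12, had 10117, 8395 and 7929 in cKO liver, against 9647, 8932 and 7662 in control liver, and 2395, 3144 and 2592 in cKO thymus, against 11773, 9191 and 5409 in control thymus. The liver groups were interleaved, and cKO thymus was low. Stat4 fell in cKO thymus (-1.64 ± 0.29, adjusted p = 0.013, limma), with 0.01 ± 0.29 in liver and an interaction of 1.65 ± 0.42 (95% interval 0.77 to 2.52, adjusted p = 0.69). In cKO cells it was higher in liver than in thymus (1.70, adjusted p = 0.02), and in control cells the tissues differed by 0.06 (adjusted p = 0.96).

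The other genes of this pattern took both directions. Itgb3, the integrin beta 3 chain, rose in cKO thymus (8251, 5206 and 6796, against 517, 324 and 2849 in control thymus, adjusted p = 0.012, limma). The liver samples of both genotypes lay between 3690 and 5763, near the level of cKO thymus. Trerf1, a zinc finger transcriptional regulator, rose in cKO thymus (709, 956 and 828, against 14.6, 4.65 and 214 in control thymus, adjusted p = 0.033), and Kcnn4, a calcium-activated potassium channel, rose there too (3261, 1590 and 1279, against 22.4, 20.8 and 662 in control thymus, adjusted p = 0.036). In both genes the liver samples lay between 577 and 1589 in either genotype. The liver groups of Kcnn4 overlapped. For Trerf1 the cKO liver samples (865, 853 and 678) lay below the control liver samples (894, 1589 and 1078), a difference that was not called. Their interactions were -2.94 ± 0.78 for Itgb3, -5.49 ± 1.45 for Trerf1 and -5.17 ± 1.41 for Kcnn4, all with an adjusted p of 0.75. In these 3 genes control thymus sample 3 had the highest value of its group, and without that sample each of the 3 interactions was called. The control thymus group then held samples 1 and 2, which had more genes with 0 reads (3528 and 2824) than sample 3 (1782).

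Ampd2, an AMP deaminase, had 488, 600 and 361 in cKO liver, against 891, 719 and 999 in control liver, and 2788, 684 and 1356 in cKO thymus, against 124, 101 and 276 in control thymus. It rose in cKO thymus (adjusted p = 0.044, limma) and was not called in liver (-0.86, adjusted p = 0.99), with an interaction of -4.04 ± 0.997 (adjusted p = 0.65). Bysl, a factor of small ribosomal subunit assembly, fell in cKO thymus (173, 121 and 270, against 1778, 2687 and 1073 in control thymus, adjusted p = 0.026). Prkcsh, the beta subunit of glucosidase II, fell there as well (266, 226 and 279, against 3057, 2336 and 1054 in control thymus, adjusted p = 0.026). In liver both had values from 423 to 987 with overlapping genotypes, and their interactions were 3.44 ± 0.93 and 3.05 ± 0.83 (adjusted p = 0.75 for each). Cfap54, a cilia and flagella protein, was at 1.03, 0 and 1.43 in cKO thymus, against 379, 454 and 897 in control thymus, with 3 reads against 1447 (ratio of read shares 560 in favour of control, exact 95% interval 191 to 2720), and 115 or more in every liver sample. It fell in cKO thymus (adjusted p = 0.0044, limma). The cKO liver samples (371, 115 and 238) also lay below the control liver samples (1601, 606 and 418). That difference was not called (-1.77, adjusted p = 0.95, limma). The interaction of Cfap54 was 6.53 ± 1.76 (adjusted p = 0.75). Cdk6, the cell cycle kinase, had 291, 455 and 109 in cKO thymus, against 615, 3897 and 2462 in control thymus, which was not called (adjusted p = 0.097), and its interaction was 3.93 ± 1.08 (adjusted p = 0.75).

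A further group had differences of opposite sign in the tissues. Gzma, the gene for granzyme A, had 4691, 2612 and 2933 in cKO liver, against 3351, 323 and 631 in control liver, and 5.14, 188 and 776 in cKO thymus, against 4179, 7043 and 3087 in control thymus. The cKO thymus samples were the low ones and spread over 2 orders of magnitude. Gzma fell in cKO thymus (-5.54 ± 1.18, adjusted p = 0.038, limma), its difference of 1.90 ± 1.18 in liver was not called (adjusted p = 0.89), and the interaction was 7.45 ± 1.66 (95% interval 3.96 to 10.93, adjusted p = 0.44). Gzma and Gzmb thus had interactions of the same sign from different tissues, Gzmb through its rise in cKO liver and Gzma through its fall in cKO thymus.

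Il2rb, the beta chain shared by the receptors for interleukins 2 and 15, was the most precisely measured of the 30 genes. It had 48002, 51428 and 38767 in cKO liver, against 61549, 71230 and 67940 in control liver, and 50257, 58356 and 51378 in cKO thymus, against 38659, 36385 and 40797 in control thymus. The genotypes were apart in both tissues, in opposite directions. Neither difference was called, with -0.55 ± 0.15 in liver (adjusted p = 0.13, limma) and 0.46 ± 0.15 in thymus (adjusted p = 0.17), and the interaction was -1.01 ± 0.21 (95% interval -1.46 to -0.56, adjusted p = 0.33). In control cells Il2rb was higher in liver than in thymus (0.79, adjusted p = 0.016), and in cKO cells the difference was -0.22 (adjusted p = 0.84).

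Ccl5, a chemokine gene that effector T cells and NK cells express, had 19394, 21105 and 13970 in cKO liver, against 8074, 5903 and 5821 in control liver, and 1071, 1129 and 940 in cKO thymus, against 3637, 3356 and 777 in control thymus. Liver and thymus were apart in both genotypes, and more so in cKO cells: liver minus thymus was 4.10 in cKO cells (adjusted p = 0.00035, limma) and 1.62 in control cells (adjusted p = 0.12). The interaction was 2.48 ± 0.64 (adjusted p = 0.71), and without control thymus sample 3, the lowest of its group, it was called. Ctsc, the protease that activates granzymes, had 3055, 3085 and 2655 in cKO liver, against 1131, 1020 and 885 in control liver, with thymus groups that overlapped and an interaction of 2.07 ± 0.55 (adjusted p = 0.75).

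Among the remaining genes with opposite signs, most had the genotypes apart in liver. Arpc1b, a subunit of the Arp2/3 actin nucleator, had 18926, 20000 and 15357 in cKO liver, against 8287, 11137 and 8879 in control liver, and its interaction was 1.27 ± 0.31 (adjusted p = 0.65, limma). H2afz, the gene for histone variant H2A.Z, had 5532, 6229 and 10873 in cKO liver, against 1931, 1207 and 2351 in control liver, and its interaction was 2.69 ± 0.67 (adjusted p = 0.65). The genotypes overlapped in thymus for both genes. Sidt1, an RNA transporter family gene, had an interaction of 2.57 ± 0.65 (adjusted p = 0.69), with the genotypes apart in liver and overlapping in thymus. Sike1, a suppressor of the kinase IKK epsilon, and Baz1a, a chromatin remodelling subunit, had genotypes apart in both tissues in opposite directions, with interactions of 2.24 ± 0.53 (adjusted p = 0.65) and 1.66 ± 0.45 (adjusted p = 0.75).

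Ttc41 and Sept5 had few reads in at least 1 group of each tissue. Ttc41, a tetratricopeptide repeat gene, had 10 reads over cKO liver against 193 over control liver, and 242 over cKO thymus against 1 over control thymus, where the ratio of read shares was 208 (exact 95% interval 37.0 to 8260). Its interaction was -9.71 ± 2.33 (adjusted p = 0.65, limma). Sept5, a septin gene, had 112 reads over cKO liver against 0 over control liver, at least 8.97-fold higher in cKO cells with a floor of 3 reads per sample. That bound was 3.42 without cKO liver sample 2 and 28.8 without control liver sample 3. It had 0 reads over cKO thymus against 174 over control thymus, at least 27.6-fold lower in cKO cells, but at least 2.63-fold lower without control thymus sample 3. The interaction of 9.37 ± 2.48 had an adjusted p of 0.75, and Sept5 overlaps Gp1bb on the same strand, so that the source of its reads is uncertain. The use of strand in counting is not stated, and of the 30 genes Ttc41, Arpc1b, Nhsl2, Bysl and Baz1a overlap a protein-coding gene too.

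**Figure D3:**
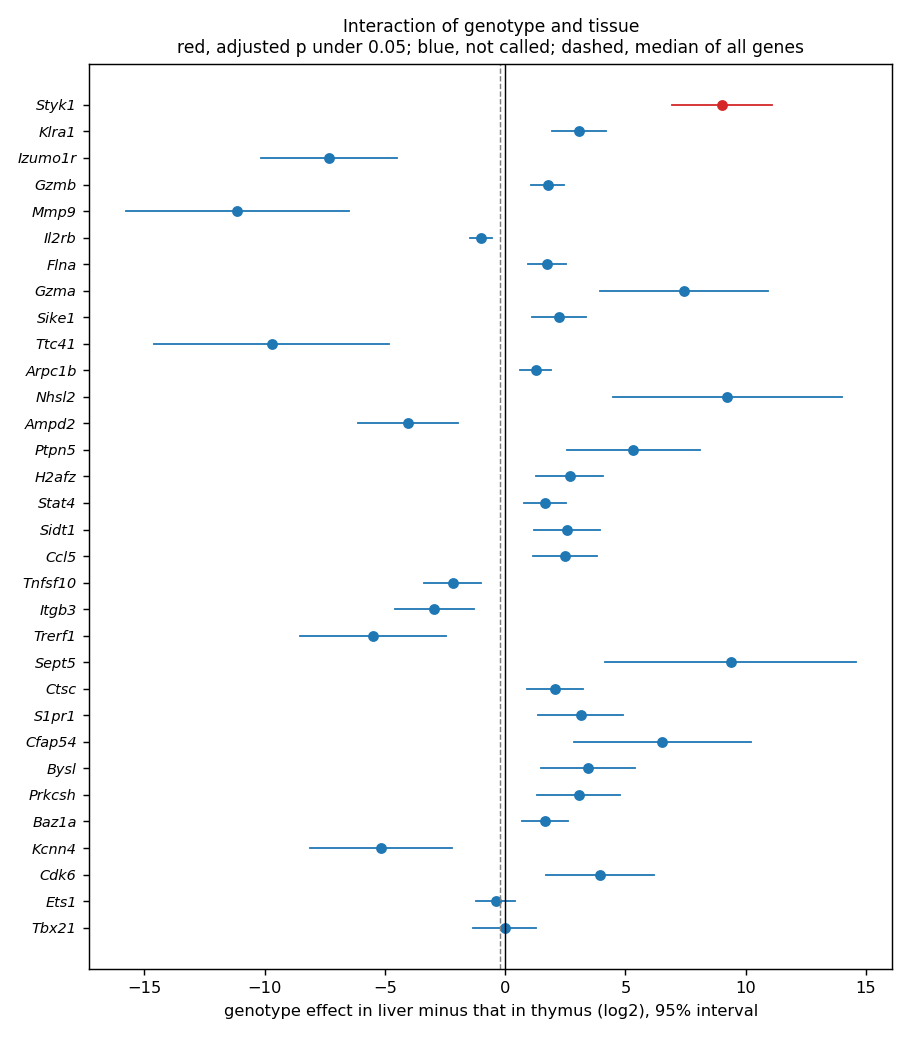
Interaction of genotype and tissue (horizontal axis, log2, positive where the difference of cKO from control cells was more positive in liver) with its 95% interval for the 30 genes of smallest p and for Ets1 and Tbx21, from 3 samples in each of 4 groups. Styk1 (red) was called at an adjusted p of 0.00036, the blue genes were not called, and the dashed line is the median of all genes, -0.20.

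Lists of genes by role in these cells were then examined. Each was described by how many of its tested members were called in the interaction and by its median beside that of all genes. With 1 sample left out, the median of all genes moved too. It lay between -0.29 (without control thymus sample 3) and -0.09 (without control thymus sample 1). Of all genes, 0.00766% were called in limma, 0.023% in edgeR and 0.858% in DESeq2, and 5.38% had an unadjusted p under 0.05 (limma). The lists were chosen with earlier results of these data known, so that their counts are a description. The 11 listed Ly49 genes that were tested, of a family that includes receptors for MHC class I, had the highest list median, 2.21. All 11 had a positive interaction, also under TMM, median-of-ratios, edgeR and DESeq2 scaling. The list holds the pseudogene Klra13-ps and leaves out the pseudogenes Klra11-ps and Klra14-ps, which were tested too and had interactions of 2.63 ± 2.46 and -2.34 ± 2.81, so that not every tested gene of the family was positive. None was called in limma, where 3 had an unadjusted p under 0.05, and 1 was called in edgeR and in DESeq2, Klra1 in each. Their median difference was 2.46 in liver and 0.34 in thymus. Klra4 was, after Klra1, the member with the smallest p, with 2301, 1632 and 2757 in cKO liver, against 335, 146 and 92 in control liver, and 1824, 2389 and 1893 in cKO thymus, against 1038, 556 and 814 in control thymus. It rose in cKO liver (3.71 ± 0.58, adjusted p = 0.0032), and its interaction was 2.34 ± 0.82 (adjusted p = 0.89). Because the members share sequence and lie side by side, they are not independent measurements, and the list median was 1.24 without control liver sample 2.

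The 20 tested NK receptors of other families had a median interaction of -0.02 (between -0.22 and 0.38 with 1 sample left out), with 10 positive and 10 negative members, and Styk1 was the 1 member called, also in edgeR and DESeq2. Klrd1, the CD94 chain of the NKG2 receptors, had the next smallest p of the list. It was lower in liver than in thymus in both genotypes, by -1.56 in cKO cells (adjusted p = 0.024, limma) and by -2.34 in control cells (adjusted p = 0.00035), and its interaction was 0.78 ± 0.40 (95% interval -0.05 to 1.61, adjusted p = 0.93).

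Styk1 and the Ly49 genes are neighbours. Within 2 Mb on either side of Styk1, 27 other genes were tested, 21 of which had a positive interaction (77.8%), against 43.6% of all genes, with a median of 0.99. Among the 20 Klr genes 16 were positive, with a median of 1.11, and among the 7 others 5 were positive, with a median of 0.82. After the other scalings 21 or 22 of the 27 were positive, where the share among all genes was between 47.7% and 51.8%. The window was chosen after the values were seen, neighbouring genes are not independent, and no test was made. None of the 27 was called in limma, where 4 had an unadjusted p under 0.05, 1 was called in edgeR and 2 in DESeq2.

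Of the cytotoxic granule and death ligand genes, 18 were tested and the median was 0.38. None was called in limma or edgeR and 4 in DESeq2, and 4 had an unadjusted p under 0.05 with a positive and 1 with a negative interaction. Gzmb, Gzma, Ctsc and Tnfsf10, described above, had the smallest p of this list. Its median was 0.19 without cKO liver sample 2 and 0.57 without control thymus sample 2. Without control thymus samples 1 and 2 it was -0.01, against 0.06 for all genes. The 20 genes of terminal effector CD8 T cells had a median interaction of 0.46, with median differences of 1.94 in liver and 0.85 in thymus, and 6 were called in liver and 2 in thymus, against 0.505% and 0.636% of all genes. In the interaction none was called in limma, edgeR or DESeq2 and 5 passed an unadjusted p of 0.05, and the list median was 0.30 without control thymus sample 3 and 0.98 without control thymus sample 1. S100a4, a calcium-binding protein of effector and migrating cells, had 5553, 10233 and 5411 in cKO liver, against 246, 1022 and 795 in control liver. It rose there (3.53 ± 0.59, adjusted p = 0.0063, limma), with overlapping thymus groups and an interaction of 2.64 ± 0.83 (adjusted p = 0.87). Vim, the intermediate filament gene, rose in cKO liver too (2.33 ± 0.45, adjusted p = 0.018), with 7000, 8387 and 4393, against 3247, 848 and 728 in control liver, and its interaction was 1.96 ± 0.63 (adjusted p = 0.87). In control cells Vim was lower in liver than in thymus (-2.40, adjusted p = 0.013), and in cKO cells the difference was -0.44 (adjusted p = 0.92).

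Transcription factors showed no common shift. The 27 T-bet and effector factors had a median interaction of 0.00 (between -0.15 and 0.24 with 1 sample left out) with 14 positive and 13 negative, and 0 were called in limma or edgeR and 2 in DESeq2, while 4 positive and 3 negative ones had an unadjusted p under 0.05. Stat4 and Rora had the smallest p. Rora, a nuclear receptor family factor, had 17453, 14231 and 14772 in cKO liver, against 5911, 8984 and 6433 in control liver, and 14836, 17430 and 13387 in cKO thymus, against 1693, 2822 and 3534 in control thymus. The genotypes were apart in both tissues, and the cKO samples of liver and thymus were at one level. It rose in cKO thymus (2.56 ± 0.28, adjusted p = 0.0004), the 1.14 ± 0.28 in liver was not called (adjusted p = 0.08), and the interaction was -1.42 ± 0.40 (adjusted p = 0.77). In control cells Rora was higher in liver than in thymus (1.45, adjusted p = 0.021).

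The 14 tested ETS family members had a median of -0.04 (between -0.21 and 0.19 with 1 sample left out), with 0 called in limma, edgeR or DESeq2 and 1 at an unadjusted p under 0.05. That one was Gabpa, an ETS factor of housekeeping promoters, with an interaction of -1.23 ± 0.53 (95% interval -2.35 to -0.11, adjusted p = 0.91, limma). Elk1, the next by p, had 2.65 ± 1.40 (adjusted p = 0.93). Neither gene was called in liver or in thymus.

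Of 15 secreted cytokine and chemokine genes 0 were called in limma or edgeR and 1 in DESeq2, with 1 of each sign at an unadjusted p under 0.05. The median of -0.52 turned to 0.08 in edgeR and 0.11 in DESeq2, and was -1.74 without control thymus sample 3 and -0.18 without control liver sample 3. Besides Ccl5, Xcl1, the chemokine for cross-presenting dendritic cells, had the smallest p. It fell in cKO liver (592, 494 and 999, against 4054, 3230 and 4420 in control liver, adjusted p = 0.0062, limma), with overlapping thymus groups and an interaction of -1.87 ± 0.60 (adjusted p = 0.87). Of 25 cytokine receptor genes 0 were called in limma, edgeR or DESeq2, and 2 positive and 3 negative ones passed an unadjusted p of 0.05, with a median of -0.16 that was positive after TMM rescaling, in edgeR and in DESeq2. Il7r, the interleukin 7 receptor, had 10337, 14945 and 8534 in cKO thymus, against 39747, 50118 and 27831 in control thymus. It fell there (-1.80 ± 0.32, adjusted p = 0.012), while its liver groups overlapped at 2109 to 4674, and its interaction was 1.61 ± 0.45 (adjusted p = 0.77). Il7r was lower in liver than in thymus in both genotypes, by -1.86 in cKO cells (adjusted p = 0.02) and by -3.47 in control cells (adjusted p = 1.2e-05).

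Genes of egress and of residency had medians on either side of that of all genes. The 15 egress and circulation genes had a median of 0.26, with 11 positive members, 0 called in limma or edgeR and 2 in DESeq2, and 3 positive and 1 negative at an unadjusted p under 0.05. That median was 0.14 without cKO thymus sample 2 and 0.55 without control thymus sample 1. The negative one was Ccr2, a chemokine receptor for CCL2, with 13156, 17020 and 11557 in cKO thymus, against 8746, 8193 and 5586 in control thymus, liver groups that overlapped, and an interaction of -0.97 ± 0.32 (adjusted p = 0.87, limma). The 20 tissue residency genes had a median of -0.68, with 13 negative members, 0 called in limma, edgeR or DESeq2 and 6 negative ones at an unadjusted p under 0.05. At a pseudocount of 10 that median was -0.22, against -0.14 for all genes. The list median was -1.12 without cKO thymus sample 1 and -0.39 without cKO thymus sample 2. Cxcr6, the chemokine receptor that keeps iNKT cells in liver, had 26129, 23166 and 23093 in cKO liver, against 39291, 37694 and 40589 in control liver, and 15876, 22776 and 20877 in cKO thymus, against 16103, 12203 and 20490 in control thymus. The genotypes were apart in liver and overlapped in thymus. Neither difference was called (-0.70 ± 0.20 in liver, adjusted p = 0.17, and 0.30 ± 0.20 in thymus, adjusted p = 0.55), and the interaction was -1.004 ± 0.29 (95% interval -1.61 to -0.40, adjusted p = 0.77). In control cells Cxcr6 was higher in liver than in thymus (1.30, adjusted p = 0.0031), and in cKO cells the difference was 0.30 (adjusted p = 0.84).

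T cell receptor signalling was the list with the smallest median SE, 0.49, and the median interaction of its 24 genes was -0.07 (between -0.29 and 0.08 with 1 sample left out). None was called in limma, edgeR or DESeq2, and 2 positive and 1 negative one passed an unadjusted p of 0.05. Themis, a regulator of T cell receptor signals, rose in cKO thymus (2681, 2360 and 3044, against 127, 1043 and 465 in control thymus, adjusted p = 0.026, limma), with overlapping liver groups between 3685 and 6608 and an interaction of -2.41 ± 0.77 (adjusted p = 0.87). Dgka, a diacylglycerol kinase that damps such signals, was lower in cKO samples of both tissues. It fell in thymus (-3.98 ± 0.46, adjusted p = 0.0004), the -2.01 ± 0.46 in liver was not called (adjusted p = 0.055), and the interaction was 1.97 ± 0.65 (adjusted p = 0.87).

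The 23 immediate early and antigen-induced genes had a median of -0.69, with 0 called in limma, edgeR or DESeq2 and 1 positive and 2 negative at an unadjusted p under 0.05. This median was -0.30 without control thymus sample 1, against -0.09 for all genes. Without control thymus samples 1 and 2 it was 0.10, against 0.06 for all genes. Nr4a3, a nuclear receptor induced by antigen, had an interaction of -4.37 ± 1.65 and Egr1 one of -1.51 ± 0.60 (adjusted p = 0.91 for each, limma), and neither was called in liver or thymus. Of 21 costimulatory and inhibitory receptor genes 16 had a negative interaction, with a median of -0.75 (-0.40 without control thymus sample 1), and 0 were called in limma or edgeR and 1 in DESeq2, with 3 negative ones at an unadjusted p under 0.05. Besides Izumo1r, Slamf6, a SLAM family receptor, had the smallest p, with an interaction of -5.03 ± 2.21 (adjusted p = 0.91). It had 0.0213, 64.8 and 1251 in control thymus, a spread of several orders of magnitude within 1 group.

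The 33 type I interferon response genes had a median interaction of 0.23, with 0 called in limma or edgeR, 1 in DESeq2 and 2 at an unadjusted p under 0.05 in each direction, and their median difference was -0.51 in liver and -0.72 in thymus. The median interaction was 0.03 without control liver sample 1, 0.43 without control thymus sample 3 and 0.51 after TMM rescaling. Isg15 had an interaction of 3.22 ± 1.36 (adjusted p = 0.91, limma). Ifi44 had -8.05 ± 2.87, from differences of -5.11 in liver and 2.94 in thymus, neither of them called. In liver, 0 reads over cKO samples stood against 85 over control samples, with deposited values of 38.3, 11.1 and 165 in control liver. In thymus, 671 reads over cKO samples stood against 0 over control samples, with deposited values of 0.00459, 0 and 495 in the 3 cKO samples. Of 22 integrin and adhesion genes 0 were called in limma, edgeR or DESeq2 and 6 passed an unadjusted p of 0.05, with a median of -0.38 that was 0.06 without control liver sample 1. After Itgb3 the smallest p was that of Alcam, for which 0 reads over cKO liver stood against 187 over control liver (at least 6.47-fold lower in cKO cells, 3.53-fold without control liver sample 1 and 26.8-fold without cKO liver sample 2). In the 31 cell cycle genes 0 were called in limma, edgeR or DESeq2, 1 passed an unadjusted p of 0.05 and the median SE was 2.24. Their median of 0.35 was -0.70 without control liver sample 1 and 0.71 without control liver sample 3. Mcm6 and Mcm2, helicase subunits of DNA replication, had interactions of 1.49 ± 0.69 (adjusted p = 0.92) and 1.48 ± 0.75 (adjusted p = 0.93).

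The 21 glycolytic genes had a median of 0.48 with 14 positive members (0.06 without cKO thymus sample 1 and 0.90 without control thymus sample 2). None was called in limma, edgeR or DESeq2, and 1 passed an unadjusted p of 0.05. Eno1, an enolase, fell in cKO thymus (526, 1586 and 772, against 6592, 3042 and 3221 in control thymus, adjusted p = 0.044, limma), with overlapping liver groups and an interaction of 1.64 ± 0.70 (adjusted p = 0.91). Aldoa, an aldolase, had an interaction of 0.83 ± 0.52 (adjusted p = 0.94). The 17 heat shock and stress genes had a median of -0.22, with 0 called in limma, edgeR or DESeq2 and 2 at an unadjusted p under 0.05. This median was -0.42 without cKO liver sample 2, 0.05 without cKO liver sample 1, 0.07 after TMM rescaling and 0.09 in edgeR. Hsph1 and Hsp90aa1 were the members of smallest p, with interactions of 2.12 ± 0.95 (adjusted p = 0.91) and 0.95 ± 0.44 (adjusted p = 0.92).

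**Figure D4:**
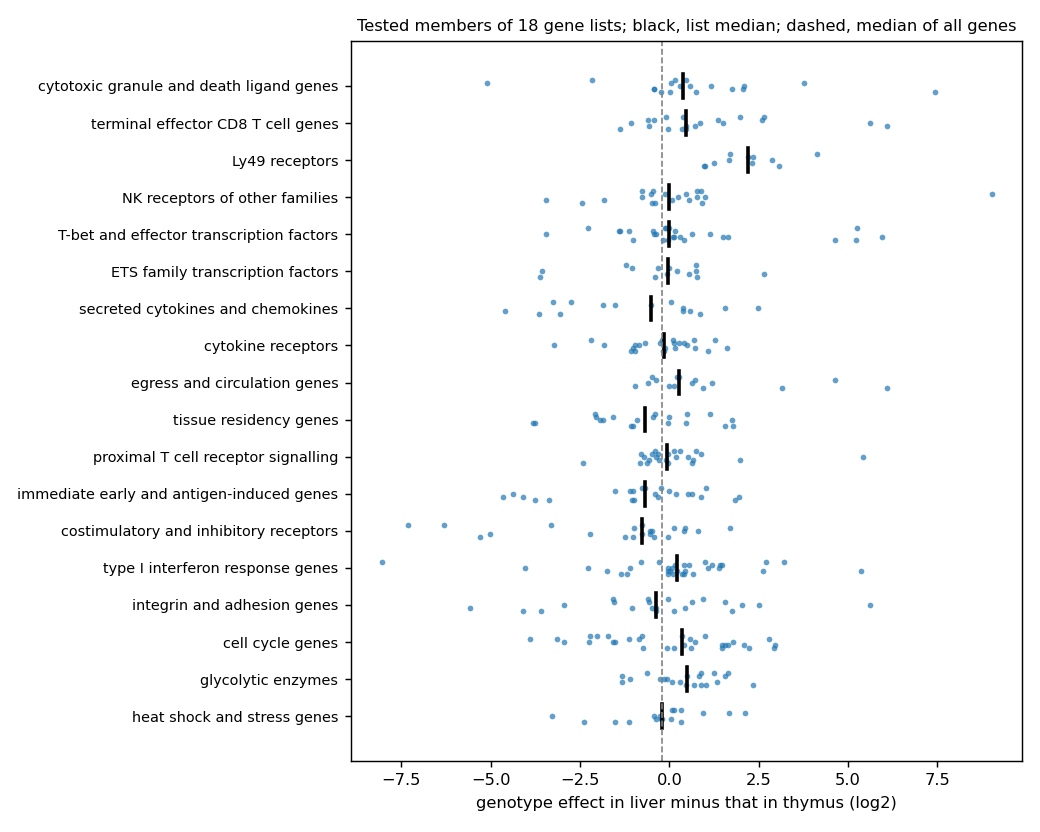
Interaction of genotype and tissue (horizontal axis, log2) of each tested member (blue points, spread vertically to be seen) of 18 gene lists, with the list median (black bar) and the median of all 13058 genes (dashed line, -0.20). The point at 9.03 is Styk1, the one called gene, and the 11 listed Ly49 genes lie above 0, with a median of 2.21, while Klra14-ps, outside the list and not drawn, had -2.34.

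Seen as a difference between tissues, the same interaction compares liver minus thymus in cKO cells with that in control cells. Liver and thymus differed in 29 genes in cKO cells (0.222%), 14 higher and 15 lower in liver, and in 79 genes in control cells (0.605%), 44 higher and 35 lower in liver, with 37 higher and 73 lower after TMM rescaling. Both counts changed by more than 1.5 times without single samples, from 3 to 43 in cKO cells and from 26 to 395 in control cells, where the highest count was without control thymus sample 3. Among the genes above, Klra1, Ptpn5, Il2rb, Sike1, Ctsc, Itgb3, Trerf1, Mmp9, Vim, Rora, Ccr2, Cxcr6 and Themis differed between tissues in control cells and were not called in cKO cells. Stat4, Ccl5, Izumo1r, Nhsl2 and Cfap54 were called in cKO cells and not in control cells. The difference between the 2 comparisons is the interaction, which was called in none of these 18 genes in limma, where each had an unadjusted p under 0.05, in 2 of them in edgeR and in 10 in DESeq2. These genes were named for their small p in the interaction, so that the counts only describe them.

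Depth and markers of other cells moved with some groups. Recovered reads were 3.21 M in cKO liver sample 2 and 3.87 M in control liver sample 3, and between 18.5 and 43.4 M in the other 10 samples, so that each liver group held 1 shallow sample. Control thymus samples 1 and 2 had the most genes with 0 reads (3528 and 2824, against 966 to 2223 in the other samples). Mitochondrial rRNA made up 29.99% and 34.16% of the deposited total in these 2 samples, against 24.16% to 25.8% in the other 4 thymus samples, and 23.24% to 31.25% in cKO liver, against 28.48% to 33.1% in control liver. Styk1 was the called gene without the 2 shallow liver samples, which took 1 sample from each liver group. Without control thymus samples 1 and 2 that group held 1 sample. Leaving samples out also lowers the number per group, so the part of depth and of these samples in the results was not tested. Tbx21 and Il2rb, which define iNKT1 cells, were expressed in all 12 samples. Summed values of the 9 of 12 hepatocyte markers in the table were 1280 to 1990 in cKO liver, against 1680 to 1960 in control liver, and 8.26 to 442 in cKO thymus, against 224 to 868 in control thymus. The 7 of 10 B cell markers in the table summed to 1150 to 2640 in cKO liver, against 5900 to 8730 in control liver, and to 2260 to 5720 in cKO thymus, against 3160 to 5350 in control thymus. The 8 of 10 markers of immature thymocytes in the table summed to 5600 to 8610 in cKO liver, against 10300 to 15000 in control liver. In thymus they summed to 2740 to 4350 in cKO samples, against 2390 to 8440 in control samples. Themis, also in the list of T cell receptor signalling above, is 1 of these markers. It alone had 4997 to 6608 in cKO liver, against 3685 to 5756 in control liver. In thymus it had 2360 to 3044 in cKO samples, against 127 to 1043 in control samples. The 6 of 9 markers of iNKT17 cells summed to 419 to 877 in cKO liver, against 984 to 7960 in control liver, and to 85.2 to 179 in cKO thymus, against 4.8 to 1970 in control thymus. The 9 of 10 markers of NK cells in the table summed to 10700 to 16000 in cKO liver, against 8020 to 14200 in control liver. In thymus they summed to 9320 to 18200 in cKO samples, against 14600 to 22600 in control samples. Gzma, described above, is 1 of these markers. It alone had 2612 to 4691 in cKO liver, against 323 to 3351 in control liver. Its thymus values were 5.14 to 776 in cKO samples, against 3087 to 7043 in control samples. The 3 of 12 endothelial markers in the table, Pecam1, Stab1 and Eng, summed to 1.16 to 89.7 in cKO liver, against 466 to 946 in control liver. In thymus they summed to 0.923 to 68.5 in cKO samples, against 72.9 to 302 in control samples. Of these 3 markers Pecam1 was the 1 high enough to be tested. Its differences of -4.98 in liver and -4.37 in thymus were not called (adjusted p = 0.35 and 0.28, limma). Markers of macrophages (7 of 12) summed to at most 1190, those of erythroid cells (5 of 8) to at most 671, and those of iNKT2 cells (8 of 8) to between 12100 and 27000 in any sample. The part of other cell types in the interactions was not tested.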

How the data were processed

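RNA was extracted with RNeasy mini kits and prepared for sequencing with the Ovation Ultralow system of Nugen, per the labels' protocols. The tools listed in the submitters' processing notes are HTSeq 0.6.1, TopHat2 2.1.0, STAR, Trimmomatic 0.33 and DESeq2, and the build is mm10; the step each was used for is not stated. The deposited table has 14004 rows (Ensembl genes) and 12 columns (samples), and its values, which the authors had adjusted for library size, were treated as a signal. Its steps allowed whole reads to be recovered: 96% of values lay within 0.1 of a whole read after inversion of a negative binomial quantile adjustment (fitted dispersion 1.57), from 90.6% to 98.6% per sample. The share was lowest in cKO liver samples 1 and 2 and control liver sample 3 (92.9%, 91.7% and 90.6%). The reads of all 12 samples rest on that inversion. That the authors used such an adjustment is inferred from the values. Recovered reads were 3.21 M to 43.4 M per sample, and intervals on them cover counting error only. Symbols and positions came from GENCODE M21 on GRCm38, the assembly mm10 names (13359 identifiers, 95.4%, matched).

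Genes with a value of at least 10 in at least 3 samples were tested (13058, 946 left out) on log2(value + 1) with limma 3.58.1 (R 4.3.3), with 1 mean per group, a variance trend, 8 residual and 10.7 prior degrees of freedom, and two-sided p-values adjusted by Benjamini-Hochberg over all genes at a threshold of 0.05. Fold changes on this scale understate those of low genes. The plan named edgeR if the table held whole counts; because it does not, edgeR 4.0.16 and DESeq2 1.42.0 were run as alternatives on recovered reads. Where a group had 0 reads the fold is a bound at a floor of 3 reads per sample. Named were Ets1 and Tbx21, the 30 genes of smallest interaction p, and the 2 members of smallest p in each of 18 lists, leaving out predicted genes, Rik genes, pseudogenes, antigen receptor segments and genes without a symbol unless called. The members, lists and tests were chosen with earlier results of these data known. Scripts were tested on simulated counts. Samples are called replicates only as far as the labels go, and the alternatives tried are given at the end.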

Additional observations from a re-analysis of the deposited data

Results flagged for a closer look

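The genotype effect on Styk1 in liver minus that in thymus was 9.03 on the log2 scale, and it stands here because the difference between the tissues was itself tested and called (limma, adjusted p = 0.00036). It was the 1 such gene of 13058. All 3 cKO liver samples were above all 3 control liver samples, while in thymus 2 of 3 cKO samples were above every control sample. With 3 samples in a group, no sample was tested for standing apart from its own group.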

How the results depend on the processing

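Styk1 was called in the interaction under all 25 alternatives. The number of genes called in the interaction, 1, was 3 at a pseudocount of 10 and at 50, 2 after TMM rescaling and 14 without a variance trend. It was 3 in edgeR, 112 in DESeq2 and 1 to 9 with 1 sample left out, the 9 being without control thymus sample 3. Without control thymus samples 1 and 2 that group held 1 sample, so no counts are given for that fit. The liver calls, 66, were 104 and 119 at pseudocounts of 10 and 50, 620 with sample weights, 39 in edgeR, 272 in DESeq2, 9 without the 2 shallow liver samples, 216 without control thymus samples 1 and 2, and 19 to 126 with 1 sample left out (19 to 35 without 1 liver sample, 122 and 126 without control thymus samples 1 and 2 in turn). The thymus calls, 83, were 129 at a pseudocount of 10, 28 with sample weights, 4 without a variance trend, 51 in edgeR and 619 in DESeq2. They were 25 without the 2 shallow liver samples and 21 to 542 with 1 sample left out. Each of the 12 samples, left out in turn, moved the count by over 1.5 times. Liver against thymus in cKO cells, 29 calls, gave 54 and 60 at pseudocounts of 10 and 50, 141 with sample weights, 44 without a trend, 18 in edgeR, 263 in DESeq2, 8 without the shallow samples, 73 without control thymus samples 1 and 2, and 3 to 43 with 1 left out (3 to 13 without 1 cKO sample). In control cells, 79 calls, it gave 49 in edgeR, 478 in DESeq2 and 20 without the shallow samples. With 1 left out it gave 26 to 395 (26 to 38 without 1 control liver sample, 395 without control thymus sample 3). The cause was not tested. The interaction of Tbx21 turned from -0.03 to 0.26 after TMM rescaling, 0.11 after median-of-ratios rescaling, 0.21 in edgeR and 0.24 in DESeq2, and lay between -0.64 and 0.39 with 1 sample left out. The bounds on folds with 1 sample left out were chosen after seeing the data. No other named gene changed sign in the interaction under these alternatives.

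Whether the replicate numbers pair the samples was not settled. Over 18 pairs of same-numbered samples the correlation of deviations from group means was weak, at -0.10 to 0.08. The pairs of cKO and control liver samples had 0.08, 0.08 and 0.07. Of the 12 samples, 8 correlated best with their own number, and no test was made of that count. With the number as a replicate block, 1 gene was called in the interaction, 71 in liver, 81 in thymus, 34 between tissues in cKO and 68 in control cells. At these depths and 3 samples a group, interactions of genes with few reads are limited to intervals of several log2 units.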
